A study of Mus musculus with 8 samples.

Results

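The short RNA fragments described here came from the 5 mitochondrial mRNA features that encode complex I subunits and are read from the heavy-strand transcript of mitochondrial DNA (mtDNA), namely mt-Nd1, mt-Nd2, mt-Nd3, the merged mt-Nd4l_4 feature and mt-Nd5. They were chosen by name and by the mtRNA class of the deposited table, without use of any measured value, and are 5 of 54531 features in that table and 5 of 36 features of mtDNA. Small RNA was sequenced from hearts of 24-week-old C57BL/6 mice, with 4 RNase H1-/- libraries and 4 RNase H1+/+ libraries. In the RNase H1-/- animals both alleles of *Rnaseh1* carried loxP sites around exon II. This exon was removed in heart and skeletal muscle by a Cre transgene that the muscle creatine kinase promoter drives (Ckmm-cre). Cells of the heart that do not use this promoter can keep the intact gene. The labels call the RNase H1+/+ animals wild type, whereas the heart controls of the study are written as carrying loxP alleles without Cre. The labels give heart tissue as the source of the RNA, and the methods of the study give isolated heart mitochondria. The study asked mainly what RNase H1, an enzyme that cuts RNA paired with DNA, does in mtDNA replication. How its loss affects mitochondrial transcripts was a further part of that study.

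Complex I (NADH:ubiquinone oxidoreductase) takes electrons from NADH, passes them to ubiquinone and pumps protons across the inner mitochondrial membrane. Most of its subunits are encoded in the nucleus, and those encoded by mtDNA form the core of its membrane arm, which carries the proton pumping machinery. Heart muscle makes most of its ATP by the oxidative phosphorylation that complex I feeds. The heavy strand of mtDNA is transcribed into a long precursor in which tRNAs stand between most mRNAs, and cutting out the tRNAs releases the mRNAs. Small RNA libraries capture short fragments of such mRNAs, so the values below count pieces of the mRNAs and may differ from the abundance of the intact molecules.

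The beginnings of the 6 coding sequences are shown because they lie within 1 base of the start of a deposited feature. The exception is mt-Nd4, which begins inside the merged mt-Nd4l_4 feature. They also show how the open reading frames differ in their first codon, which is printed in capitals. Each run holds the first 24 bases of the gene on the plus strand of the mitochondrial chromosome in GRCm38 (GENCODE release M21), 5′ to 3′.
mt-Nd1, MT:2751-2774: GTGttctttattaatatcctaaca
mt-Nd2, MT:3914-3937: ATAaatcctatcacccttgccatc
mt-Nd3, MT:9459-9482: ATTaacctgtacactgttatcttc
mt-Nd4l, MT:9877-9900: ATGccatctaccttcttcaacctc
mt-Nd4, MT:10167-10190: ATGctaaaaattattcttccctca
mt-Nd5, MT:11742-11765: ATCaatattttcacaacctcaatc
Only mt-Nd4l and mt-Nd4 of these 6 began with ATG, and mt-Nd1, mt-Nd2, mt-Nd3 and mt-Nd5 began with GTG, ATA, ATT and ATC. Such alternative start codons are a known property of the vertebrate mitochondrial code.

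The ends of the same genes are shown because most deposited features stop at or near them. The mt-Nd5 feature runs 579 bases further, and mt-Nd4l ends inside the merged feature. The last 24 bases are given, with the stop codon, or the part of it that the gene encodes, in capitals.
mt-Nd1, MT:3684-3707: gcgggagtaccaccatacataTAG
mt-Nd2, MT:4928-4951: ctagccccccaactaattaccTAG
mt-Nd3, MT:9783-9806: aaaggattagaatgaacagagTAA
mt-Nd4l, MT:10150-10173: aatctcaacctactacaatgcTAA
mt-Nd4, MT:11521-11544: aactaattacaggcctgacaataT
mt-Nd5, MT:13542-13565: ttatactcaattaatctcgagTAA
The mt-Nd4 gene, 1378 bases long, ended in a single T, which becomes a stop codon when the poly(A) tail is added. In the plus-strand sequences of the 5 members G was the rarest base, at 8.0% in mt-Nd2, 9.98% in mt-Nd5, 10.01% in mt-Nd4l_4, 10.9% in mt-Nd3 and 11.6% in mt-Nd1. mt-Nd6, the complex I mRNA of the other strand, held 28.1% G and 5.97% C in its own sense.

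The levels of the 5 members were given in the deposited table as the authors' mean over all 8 libraries, in reads divided by a size factor per library. This mean pools both genotypes and need not be the level in either. The average of a single genotype could reach 819 reads for mt-Nd5 and 262 reads for mt-Nd3. No genotype comparison of the members was made here, because the 8 columns per library carry names that match no sample label, and the authors' averages by genotype cover 23 other mtDNA features and none of the members. No spread between libraries accompanies the values below, so no order among them was tested. Fewer cells of a type and less RNA per cell cannot be told apart in these bulk libraries.

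mt-Nd1 encodes a membrane subunit at the junction of the membrane and matrix arms, close to the ubiquinone site. Its feature ran from 2751 to 3705 on the mitochondrial chromosome and had an authors' mean of 232 reads. Per kb of feature length this was 243 reads. mt-Nd1 thus ranked 6 among the 11 mRNA features of mtDNA by reads and 5 by reads per kb.

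mt-Nd2, mt-Nd4 and mt-Nd5 encode the antiporter-like subunits of the membrane arm. The mt-Nd2 feature (3914 to 4949) had an authors' mean of 137 reads and 133 reads per kb, the lowest value per kb of the 5 members. Among all 11 mRNA features only mt-Nd6 was lower per kb. The mt-Nd5 feature (11742 to 14144) had the highest authors' mean of the members, at 409 reads, and ranked 2 among the 11 mRNA features after mt-Co1, which encodes the catalytic subunit of cytochrome c oxidase. Per kb of its deposited length mt-Nd5 stood at 170 reads and ranked 9.

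mt-Nd4l and mt-Nd4 were counted together. They are adjacent on the heavy-strand transcript with no tRNA between them, share an mRNA, and overlap by 7 bases. The 47 bases around the overlap (MT:10147-10193) are shown, with the shared bases in capitals.
mt-Nd4l and mt-Nd4: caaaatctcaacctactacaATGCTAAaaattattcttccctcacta
The capitals hold the ATG of mt-Nd4 and the TAA of mt-Nd4l. The merged feature (9876 to 11544) had an authors' mean of 377 reads and 226 reads per kb. How these reads divide between mt-Nd4l, a small membrane subunit, and mt-Nd4 cannot be read from a single value.

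mt-Nd3 encodes a small subunit with a loop that moves when the enzyme switches between its active and resting forms. Its feature (9459 to 9807) was the shortest of the 5, at 349 bases, and had the lowest authors' mean, at 131 reads. Per kb mt-Nd3 moved from the lowest to the highest of the members, at 376 reads, and ranked 3 among the 11 mRNA features. mt-Nd3 was 2.83 times mt-Nd2 per kb, whereas their authors' means per feature, 131 and 137 reads, were close.

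**Figure D1:**
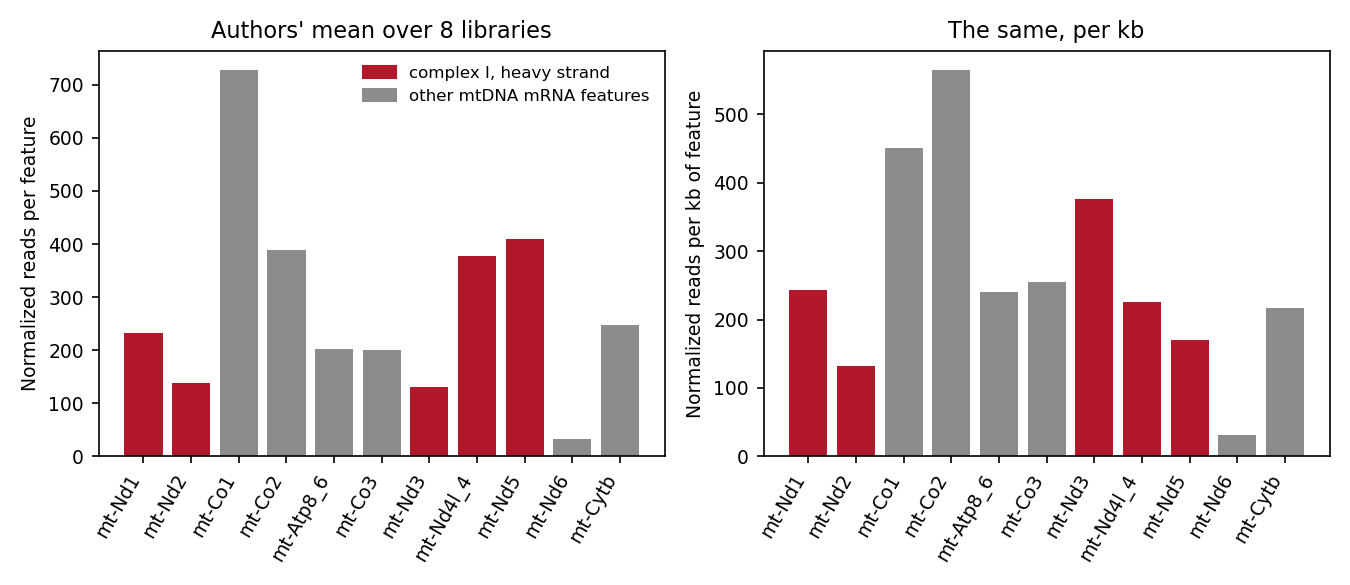
Authors' mean over 8 libraries of normalized reads for the 11 mRNA features of mtDNA, in genome order, per feature (left axis) and per kb of feature length (right axis). Red bars are the 5 heavy-strand complex I features and grey bars the other 6. mt-Nd5 and mt-Nd4l_4 are the highest members per feature, at 409 and 377 reads, and mt-Nd3 is the highest member per kb, at 376 reads.

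The 5 members summed to 1287 reads. mt-Nd5 made up 31.8% of this sum, mt-Nd4l_4 29.3%, mt-Nd1 18.0%, mt-Nd2 10.7% and mt-Nd3 10.2%. When each member was divided by its length first, the shares were 32.7% for mt-Nd3, 21.2% for mt-Nd1, 19.7% for mt-Nd4l_4, 14.8% for mt-Nd5 and 11.6% for mt-Nd2. Between the highest and the lowest member the ratio was 3.12 in reads and 2.83 in reads per kb.

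Set against the other 6 mRNA features of mtDNA, the members lay within the range of those features, whose lower end was mt-Nd6. The members had a median of 232 reads (range 131 to 409), beside 225 reads (32.0 to 728) for the others. Without mt-Nd6 the others had a median of 248 reads, and their lowest, mt-Co3 at 200 reads, stood above mt-Nd2 and mt-Nd3. Per kb the members had a median of 226 reads (133 to 376), beside 247 reads (30.8 to 564) for the others. Without mt-Nd6 the others had a median of 255 reads per kb. Their lowest, mt-Cytb at 217 reads per kb, stood above mt-Nd2 and mt-Nd5 on the deposited lengths. The members held 41.7% of the reads of all 11 mRNA features, 3.68% of the reads of all 36 mtDNA features and 0.156% of the reads of the whole table. Of the mtDNA reads, the 22 tRNA features held 49.7%, the 2 rRNA features 32.6%, the 7S RNA 8.91% and the 11 mRNA features 8.82%. By authors' mean the members stood between rank 116 (mt-Nd5) and rank 152 (mt-Nd3) of all 54531 features. Of these features 14456 had a mean above 0, with a median of 0.428 reads.

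The nuclear partners of the members left far fewer fragments. All 37 nuclear complex I subunit genes of the list had a mean above 0, but the median was 2.42 reads and they summed to 120 reads. Among those with the most reads were Ndufv2 at 7.71 reads, which encodes a core subunit of the matrix arm, and Ndufs1 at 7.59 reads, which encodes the largest subunit and carries iron-sulfur clusters. None of the 37 reached the lowest member, mt-Nd3 with 131 reads. Of 14 assembly factor genes 11 had a mean above 0, and 13 were under 1 read. These sums are per gene and not per length. Mitochondrial and nuclear fragments can differ in how well a small RNA library takes them up, which was not tested. The methods of the study give isolated mitochondria as the RNA source, and whether this lowered the nuclear values was not tested either. All mtDNA features together held 4.25% of the reads of the whole table, so most counted reads lay outside mtDNA.

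*Rnaseh1* itself was listed at a mean of 0 and gave no check of the genotypes. The labelled tissue was checked by markers in the same pooled values. The 7 cardiomyocyte markers had means of 36.8 to 662 reads, led by Myh6, the main adult mouse heart myosin chain, whereas the 3 fibroblast markers had 14.1 to 20.8 reads, the 3 endothelial markers 1.81 to 10.6, the 3 leukocyte markers 0.202 to 6.42 and the 2 erythroid markers 7.47 to 11.8.

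What a feature counts depends on where its borders were drawn, and these were compared with the reference genes of the same build. The mt-Nd1 and mt-Nd2 features began at the first base of the gene and ended 2 bases before its end, where the next tRNA begins, since mt-Nd1 shares 2 bases with mt-Ti and mt-Nd2 shares 2 bases with mt-Tw. The mt-Nd3 feature ended 1 base beyond the gene, and the mt-Nd4l_4 feature began 1 base before mt-Nd4l. For these 4 members the reads per kb on the reference length, 243 for mt-Nd1, 132 for mt-Nd2, 377 for mt-Nd3 and 226 for mt-Nd4l_4, were nearly the same as on the deposited length.

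Among the members the mt-Nd5 feature departed most from its gene. It was 2403 bases long against 1824 bases of the reference gene (11742 to 13565), and ran 579 bases past the stop codon to the base before mt-Cytb. This stretch lies opposite mt-Nd6 and mt-Te, the glutamate tRNA, which are read from the other strand. The whole deposited mt-Nd6 feature (13030 to 14070, 1041 bases) and all 69 bases of mt-Te lay inside the mt-Nd5 feature, and the reads were counted by strand. mt-Nd6 had an authors' mean of 32.0 reads, so mt-Nd5 was 12.8 times mt-Nd6 per feature and 5.54 times per kb of deposited length. The mt-Nd6 feature too was longer than its reference gene, at 1041 against 519 bases, and on the reference lengths of both genes mt-Nd5 was 3.64 times mt-Nd6 per kb (224 and 61.7 reads). With the reference gene length in place of the deposited one mt-Nd5 stood at 224 reads per kb, next to mt-Nd4l_4 at 226, instead of at 170. Values on the reference length divide the reads of the whole deposited feature by the length of the gene alone. How many mt-Nd5 reads fell into the 579 bases, and how many mt-Nd6 reads fell outside its gene, cannot be read from the table.

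**Figure D2:**
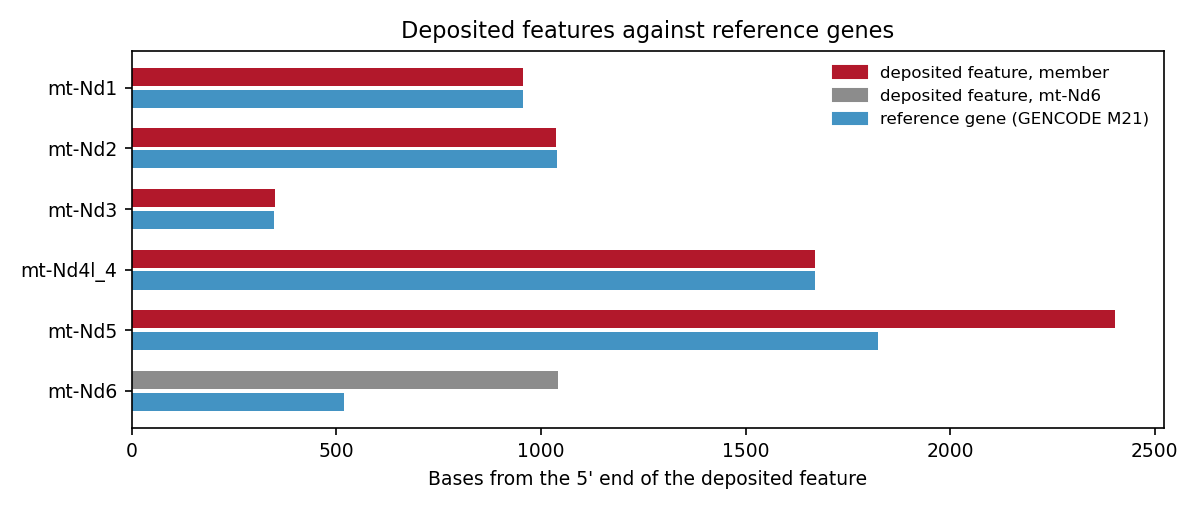
Length in bases of each deposited feature (upper bar of each pair, red for the 5 members and grey for mt-Nd6) and of its reference gene in GENCODE release M21 (blue, lower bar), drawn from the 5′ end of the deposited feature. The pairs coincide to within 2 bases for 4 members, whereas the mt-Nd5 feature is 2403 bases long and its reference gene 1824, and the mt-Nd6 feature is 1041 bases long and its reference gene 519.

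The members also differ in how far their sequence can be told from nuclear copies of mtDNA. The nuclear genome holds pieces of mtDNA, annotated as pseudogenes, and a short read from such a stretch fits both places. The share of windows of 20, 30 and 50 bases along each gene with an exact match in an annotated nuclear transcript was counted on both strands. mt-Nd1 had no such window among 938 of 20 bases. In mt-Nd2 23.6% of the 20-base windows had a match, and 8.19% of the 50-base windows. mt-Nd5 had 25.6% at 20 bases and 7.61% at 50 bases, over its 1824 reference bases.

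Among the members, mt-Nd4l_4 and mt-Nd3 shared much longer stretches. Such sharing was not particular to complex I. At 50 bases mt-Co2 had 100% of windows matched, mt-Co3 99.9%, mt-Atp8_6 79.3% and mt-Co1 51.1%, whereas mt-Nd6 and mt-Cytb had 0%. In mt-Nd4l_4 68.6% of the 20-base windows and 66.2% of the 50-base windows had a match, and in mt-Nd3 98.2% and 98.0%. These matches lay in a block of pseudogenes on chromosome 1 in GRCm38. Gm10222 (24612407 to 24612700) equalled mt-Nd4l in 100% of 294 aligned bases, and Gm28439 (24611535 to 24612410) equalled the first 876 bases of mt-Nd4. Gm28438 (24612775 to 24613119) matched mt-Nd3 over 345 bases with 99.71% identity and differed at 1 base, T3C, where position 1 is the first base of mt-Nd3, mt-Nd3 has the first letter and Gm28438 the second. The stretch around this base, printed as mt-Nd3 has it, holds the only base within those 345 that tells the copies apart, and the differing base is in capitals.
mt-Nd3, MT:9459-9489: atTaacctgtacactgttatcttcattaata
The base is the last of the start codon.

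All 3 of these pseudogenes were listed at an authors' mean of 0, beside 131 reads for mt-Nd3 and 377 reads for mt-Nd4l_4. The closest copies of the other members differed more. Gm13339 on chromosome 2 matched mt-Nd2 with 96.7% identity over 510 bases and was listed at 0.525 reads, the highest mean among the nuclear genes that aligned to a member. Gm4076 on chromosome 13 matched mt-Nd5 with 95.2% identity over 954 bases, Gm48258 on chromosome 12 matched mt-Nd1 with 84.0% identity over 312 bases, and both were listed at 0. In all, 26 nuclear genes aligned to a member, 23 of them were in the deposited table, and 20 of these 23 were listed at 0. A mean of 0 was common in the whole table, where 14456 of 54531 features had a mean above 0. The aligner was run at default settings, at which a read that fits several places equally well is reported at 1 of them. Where such reads were placed was not tested.

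**Figure D3:**
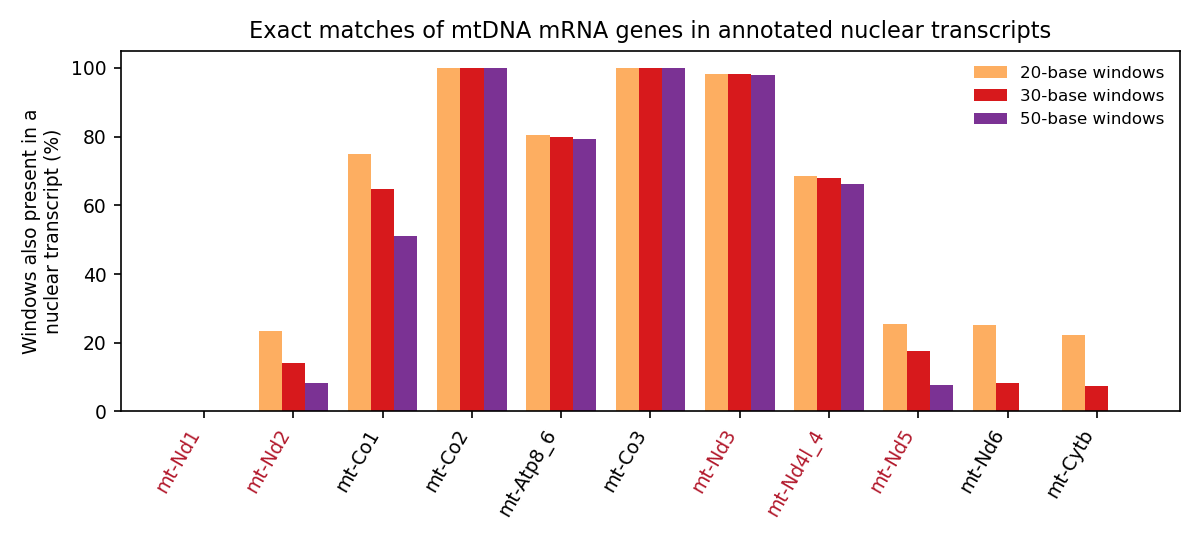
Percentage of windows of 20, 30 and 50 bases (orange, red and purple bars) along each mtDNA mRNA gene, in genome order, that have an exact match in an annotated nuclear transcript. The 5 heavy-strand complex I features have red names. mt-Nd1 has no match at any length, mt-Nd3 has 98.2% at 20 bases and mt-Nd4l_4 68.6%. The other features run from 22.2% (mt-Cytb) to 100% (mt-Co2) at 20 bases.

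Each member touched a tRNA or another mRNA feature at both ends, with a gap of 0 bases at all 10 ends. mt-Nd1 lay between mt-Tl1 (leucine) and mt-Ti (isoleucine), mt-Nd2 between mt-Tm (methionine) and mt-Tw (tryptophan), and mt-Nd3 between mt-Tg (glycine) and mt-Tr (arginine). mt-Nd4l_4 lay between mt-Tr and mt-Th (histidine), and mt-Nd5 between mt-Tl2 (leucine) and mt-Cytb. All of these tRNAs are read from the same strand as the members. At 4 of the 10 ends the neighbour had the higher authors' mean per feature, but the tRNA features are much shorter than the members. Per kb of feature length every bordering tRNA except mt-Tr stood above its member. mt-Cytb had 217 reads per kb, beside 170 for mt-Nd5 on its deposited length and 224 on its reference length.

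The neighbours of a member could be very unequal. mt-Th had 4688 reads, 12.4 times mt-Nd4l_4, and mt-Tg had 1795 reads, 13.7 times mt-Nd3. mt-Tr, which lies between mt-Nd3 and mt-Nd4l_4, had 4.11 reads, beside 131 reads for mt-Nd3 and 377 reads for mt-Nd4l_4. mt-Tl2 had 37.5 reads, beside 409 reads for mt-Nd5. These values are per feature and do not allow for the shorter tRNAs. Per kb mt-Tl2 stood above mt-Nd5, at 528 and 170 reads (224 for mt-Nd5 on its reference length). mt-Tr remained below both its members, at 60.4 reads per kb beside 376 for mt-Nd3 and 226 for mt-Nd4l_4. mt-Th had 68934.5 and mt-Tg 26392.5 reads per kb.

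For these 8 tRNAs, unlike the members, the authors deposited an average for each genotype, and the RNase H1-/- average was the lower in all 8. Next to mt-Nd1, mt-Tl1 averaged 82.7 reads in RNase H1-/- hearts and 1845 reads in RNase H1+/+ hearts, and mt-Ti averaged 7.52 reads in RNase H1-/- hearts and 160 reads in RNase H1+/+ hearts. Next to mt-Nd2, mt-Tm averaged 57.3 reads in RNase H1-/- hearts and 355 reads in RNase H1+/+ hearts, and mt-Tw averaged 4.18 reads in RNase H1-/- hearts and 127 reads in RNase H1+/+ hearts. The tRNAs at the ends of mt-Nd1 thus stood at 4.48% and 4.71% of wild type, and those at the ends of mt-Nd2 at 16.1% and 3.28%.

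Next to mt-Nd3, mt-Tg averaged 753 reads in RNase H1-/- hearts and 2836 reads in RNase H1+/+ hearts, which is 26.6% of wild type. mt-Tr, shared with mt-Nd4l_4, averaged 1.12 reads in RNase H1-/- hearts and 7.10 reads in RNase H1+/+ hearts. After mt-Nd4l_4, mt-Th averaged 298 reads in RNase H1-/- hearts and 9077 reads in RNase H1+/+ hearts, and before mt-Nd5, mt-Tl2 averaged 4.65 reads in RNase H1-/- hearts and 70.4 reads in RNase H1+/+ hearts. On the strand opposite to mt-Nd5, mt-Te averaged 41.5 reads in RNase H1-/- hearts and 353 reads in RNase H1+/+ hearts. The median over the 8 bordering tRNAs was 5.66% of wild type (range 3.28% to 26.6%), beside 10.9% (1.35% to 64.0%) over the other 15 features with such averages. The RNase H1-/- average was the lower in all of those 15 too, and they include features of the other strand, such as mt-Te. In mt-Tr, mt-Tw and mt-Tl2 the RNase H1-/- averages were only 1.12, 4.18 and 4.65 reads. These are the authors' averages without a spread, and no test was made on them. They are values of the tRNAs and not of the members between them. The reads had been divided by a size factor per library, so the percentages of wild type are relative to that scaling. They need not be amounts per heart or per mitochondrion.

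**Figure D4:**
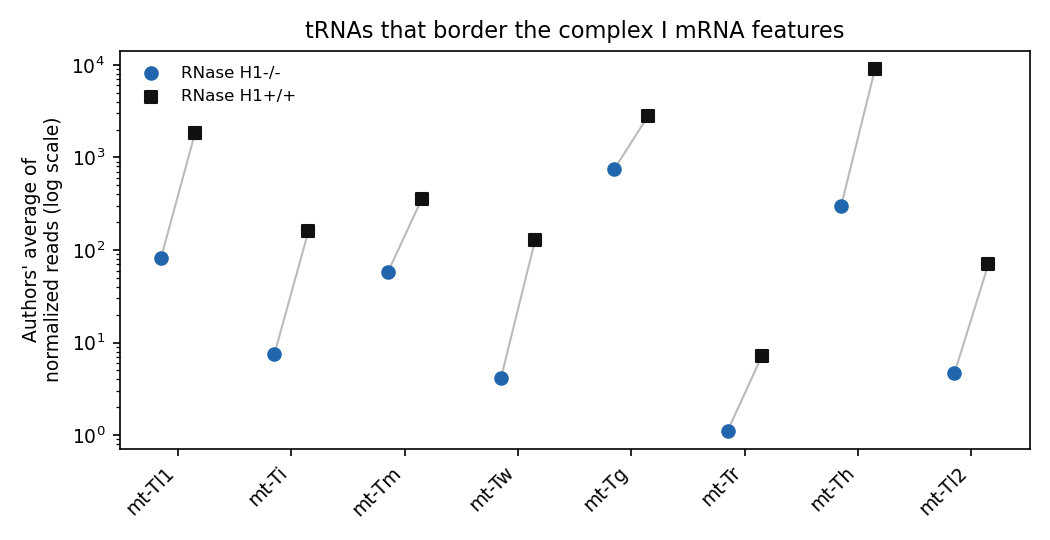
Authors' average of normalized reads, on a log axis, in RNase H1-/- hearts (blue circles) and RNase H1+/+ hearts (black squares) for the 8 tRNAs that border the complex I mRNA features, in genome order. Lines join the averages of a tRNA, and the RNase H1-/- average is the lower in all 8, from 3.28% to 26.6% of wild type.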

How the data were processed

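Small RNA libraries of 4 RNase H1-/- and 4 RNase H1+/+ mouse hearts were analysed from the deposited tables. Per the methods of the study and the submitters' processing notes, single-end reads were aligned to mm10 (GRCm38) with Bowtie2 2.3.4.1 at default settings, counted by strand with featureCounts 1.6.3 on an Ensembl annotation to which the authors added mitochondrial features of their own, and normalized with DESeq2 1.18.1 in R 3.5.1. The authors deposited, for each feature, a signal (reads per library after division by its size factor, averaged over all 8 libraries), called the authors' mean. For 23 mtDNA features the authors deposited averages of these normalized counts by genotype. The authors' mean equals the midpoint of these averages in all 23.

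The tables also hold the authors' own comparison of the genotypes (fold changes, their errors, test statistics and p-values) and errors and percentages of wild type below the second sheet. None of these was used. The 8 columns of values per library have names that match no sample label and were not used, so depth per library, outliers and tests between genotypes are not analysed here.

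From the deposited values, levels per kb of feature length, shares, ranks and medians were computed with Python 3.11.15 (pandas 2.3.3, numpy 2.4.6, figures with matplotlib 3.10.9). Gene borders and sequences came from GENCODE release M21 on GRCm38. Reference genes were aligned to annotated nuclear transcripts with BLAST 2.17.0 (blastn, word size 11, E-value limit 1e-05), keeping the longest alignment per gene, and compared by exact windows of 20, 30 and 50 bases on both strands with a script tested on simulated data. Nuclear sequence outside annotated transcripts was not searched. All 5 members are named, other mRNA features are given by count, median and range unless set against a member, and the nuclear complex I genes named are from the 3 with the highest mean, of which 1 is not reported here. The members and lists were chosen with earlier results of these data known, and the comparison with nuclear copies was chosen after the levels had been seen. mt-Co1 is named as the only mRNA feature above mt-Nd5.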

Additional observations from a re-analysis of the deposited data

How the results depend on the processing

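The values are pooled over libraries, so a value is counted as moved when it differs at 3 significant digits. Per kb in place of per read, the shares in the summed members were 21.2% for mt-Nd1, 11.6% for mt-Nd2, 32.7% for mt-Nd3, 19.7% for mt-Nd4l_4 and 14.8% for mt-Nd5, which puts mt-Nd3 first in place of mt-Nd5. Leaving a member out of the sum raises the others by construction. Without mt-Nd1 the shares were 13.0% for mt-Nd2, 12.4% for mt-Nd3, 35.7% for mt-Nd4l_4 and 38.8% for mt-Nd5. Without mt-Nd2 they were 20.2% for mt-Nd1, 11.4% for mt-Nd3, 32.8% for mt-Nd4l_4 and 35.6% for mt-Nd5. Without mt-Nd3 they were 20.1% for mt-Nd1, 11.9% for mt-Nd2, 32.6% for mt-Nd4l_4 and 35.4% for mt-Nd5. Without mt-Nd4l_4 they were 25.5% for mt-Nd1, 15.1% for mt-Nd2, 14.4% for mt-Nd3 and 44.99% for mt-Nd5. Without mt-Nd5 they were 26.5% for mt-Nd1, 15.7% for mt-Nd2, 14.9% for mt-Nd3 and 43.0% for mt-Nd4l_4. On the reference gene length mt-Nd5 stood at 224 reads per kb in place of 170, mt-Nd2 at 132 in place of 133 and mt-Nd3 at 377 in place of 376. The ratio of the members' median per kb to that of the other mRNA features was 0.913, and 0.887 without mt-Nd6. The ratio of mt-Nd5 to mt-Nd6 per kb was 5.54, and 3.64 on the reference length of both genes, an alternative chosen after seeing the data.

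No paired analysis was possible because the columns per library could not be assigned to a genotype or a replicate number. For the same reason limma, its alternatives (pseudocount, filter, leaving out each library) and exact permutation tests were not run, and no genotype ratio of a member was computed. Without depth per library, the counting error of the members is not known.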
